A study of Mus musculus with 32 samples.

Results

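Deletion of Nfkbiz in IL-1b-treated chondrocytes was examined in 4 libraries of a series of 32. They are the libraries whose labels give the genotype NFKBIZ flox with the treatment Cre + IL-1b (2 libraries) or GFP + IL-1b (2 libraries). The cells were primary chondrocytes from the sterna of C57BL/6 pups carrying floxed alleles of Nfkbiz, and they were not passaged. The study's methods name both the sterna and the ribs of newborn mice as the source of its chondrocytes. Both groups received an adenovirus for 24 h, a GFP (green fluorescent protein) virus in the control group and a Cre recombinase virus, which by the study's methods also carries enhanced GFP, in the other, and then IL-1b (interleukin-1β, 10 ng/mL) for 24 h before total RNA was depleted of ribosomal RNA and sequenced. The control cells therefore also carry the floxed alleles, a virus and the cytokine. The virus itself differs between the groups, so an effect of the Cre virus and the loss of Nfkbiz cannot be told apart within these libraries for any gene. A further 4 NFKBIZ flox libraries, 2 with GFP virus and 2 with Cre virus, had no IL-1b, and LDHA flox and NAMPT flox chondrocytes received the same viruses and cytokine, with 4 IL-1b-treated libraries for each line. The sources used here give neither the promoter of the viral transgenes nor the share of cells that were transduced, and the labels name no separate cultures or animals for the 2 libraries of a group. The p-values below therefore measure the spread between these libraries, which may be technical.

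Nfkbiz encodes IκB-ζ, an atypical member of the inhibitor of κB family that sits in the nucleus rather than in the cytoplasm. The classical members, such as IκBα, hold NF-κB dimers back until IKK kinases mark them for degradation. IκB-ζ is itself a product of NF-κB signalling downstream of IL-1 and Toll-like receptors, binds NF-κB p50 on chromatin, and is needed in macrophages and epithelial cells for a set of secondary response genes that includes Il6 and Lcn2. In chondrocytes, IL-1 turns on cytokines and matrix-degrading proteases and turns down cartilage matrix genes, which is why it is used as a model of inflamed cartilage.

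The 4 libraries held 20625238 to 23416027 counted reads, within the 15830658 to 39959888 of the whole series, and reads of the non-coding RNA Gm26917 made up 7.77% to 11.865% of them. Cre + IL-1b replicate 2 stood apart, with that 11.865% against at most 8.48% in the other 3 libraries and with 0.538% of its reads from mitochondrial genes against 1.391% to 1.783%. Levels are given as CPM, a gene's count relative to the total of its library, after TMM scaling, which corrects each library's total for its composition. The marker sums and the Cd68 value of this paragraph are instead CPM of the library total without that scaling. The cells were chondrocytes by their markers: Col2a1, Acan, Sox9, Matn1, Hapln1 and Col9a1 summed to 24967 to 26672 CPM in the GFP + IL-1b libraries and to 32343 to 34245 CPM in the Cre + IL-1b libraries. The 8 fibroblast and perichondrium markers summed to 771 to 790 and to 869 to 955 CPM in the same order. The 10 macrophage and leukocyte markers summed to 49.3 to 51.8 CPM with GFP and to 55.4 to 60.2 CPM with Cre, and at most 48.0 CPM in any NFKBIZ flox library came from Cd68, which other cells also express. The sums of the 5 osteoblast, 6 endothelial, 6 muscle and 4 adipocyte markers were 11.2 to 13.8, 6.45 to 7.03, 2.38 to 2.48 and 0.727 to 1.20 CPM with GFP, and 15.6 to 18.5, 10.1 to 10.8, 5.10 to 5.42 and 5.42 to 9.35 CPM with Cre. Most of the adipocyte sum with Cre was Cidec, a lipid droplet protein gene, which after TMM scaling was at 4.09 and 8.41 CPM with Cre and at 0 and 0.256 CPM with GFP. The 6 epithelial markers summed to 1.45 to 1.55 CPM with GFP and to 1.33 to 2.62 CPM with Cre, which overlap. Other cells were thus rare by RNA. Their marker sums, except the epithelial one, were higher with Cre, as was the chondrocyte sum. The part of these cells in the results was not tested.

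Nfkbiz itself (chr16:55811375-55838899, minus strand, GRCm38) was at 231 and 224 CPM in the GFP + IL-1b libraries and at 28.6 and 31.3 CPM in the Cre + IL-1b libraries. Both Cre libraries lay far under both controls, a 7.60-fold difference (log2 fold change -2.93 ± 0.11, SE, adjusted p = 2e-09, edgeR's quasi-likelihood test with Benjamini-Hochberg adjustment over all 15356 genes tested, as for every adjusted p-value of the NFKBIZ flox libraries below). Without IL-1b, it was at 15.6 and 16.5 CPM with GFP and at 9.31 and 7.96 CPM with Cre (log2 fold change -0.89, adjusted p = 0.00385). Counted reads from the gene were therefore reduced and not gone, and the level in Cre + IL-1b cells stayed above that of GFP cells without the cytokine. Reads are counted over the whole gene, so they can come from transcripts of a recombined allele or from cells that were not recombined, which cannot be told apart here.

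Called genes, meaning those at an adjusted p of 0.05 or less, numbered 1413 lower and 1253 higher in Cre + IL-1b than in GFP + IL-1b cells, which is 9.2% and 8.16% of the genes tested. Large differences leaned to the lower side: 521 genes were at least 2-fold lower and 406 at least 2-fold higher, 186 and 113 differed at least 4-fold, and 76 and 44 differed at least 8-fold. The median over all genes tested was -0.01 on the log2 scale. The counts rest on each library of so small a design: without GFP + IL-1b replicate 1 they were 729 lower and 561 higher, without GFP + IL-1b replicate 2 they were 805 and 605, and without Cre + IL-1b replicate 1 the lower count was 2132. Without Cre + IL-1b replicate 2, the library that stood apart, no called gene of the 202 named by rule changed sign, although some lost their call. More of the genes named by rule lost their call when either GFP + IL-1b library was left out. There were 635 lower and 434 higher genes that were called in the full fit and in each of the 4 fits that left out a compared library.

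The genes lower by the smallest p-values formed 2 kinds. One was the inflammatory programme that IL-1b turns on, led by Hp, Chil1, Saa3, Cxcl1 and Lcn2. The other was made of genes with little known tie to cartilage, such as Zan, Tmem130, Htra2, Lipg and Nat8f5, which were high in GFP-virus cells of every floxed line and near 0 or low in cells with no virus, and they are described after the comparison across lines.

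The DNA in front of 5 of the inflammatory genes is shown because NF-κB and C/EBP factors are known to act on promoters of this kind. The C/EBP genes Cebpd and Cebpb were also lower here, while the NF-κB subunit genes differed little. Each sequence holds the 250 bases before the gene's start in RefSeq on GRCm38.p6, 5′ to 3′ on the gene's strand, and capitals mark matches on either strand to the κB consensus, to the C/EBP letters TTGCNNAA or to the AP-1 letters TGANTCA. Lcn2 lies at chr2:32387740-32387989 (minus strand), Saa3 at chr7:46715677-46715926 (minus), Cxcl1 at chr5:90890995-90891244 (plus), Il6 at chr5:30012864-30013113 (plus) and Steap4 at chr5:7960222-7960471 (plus).
Lcn2: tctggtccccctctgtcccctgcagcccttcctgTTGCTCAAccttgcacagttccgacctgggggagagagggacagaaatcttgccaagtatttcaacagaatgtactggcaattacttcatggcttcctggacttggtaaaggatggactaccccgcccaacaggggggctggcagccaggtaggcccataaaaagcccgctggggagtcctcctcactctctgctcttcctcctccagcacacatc
Saa3: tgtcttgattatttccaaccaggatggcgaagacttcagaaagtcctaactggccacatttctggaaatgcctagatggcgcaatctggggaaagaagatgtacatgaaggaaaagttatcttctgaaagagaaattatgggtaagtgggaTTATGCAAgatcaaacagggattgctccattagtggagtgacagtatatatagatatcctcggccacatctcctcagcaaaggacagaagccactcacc
Cxcl1: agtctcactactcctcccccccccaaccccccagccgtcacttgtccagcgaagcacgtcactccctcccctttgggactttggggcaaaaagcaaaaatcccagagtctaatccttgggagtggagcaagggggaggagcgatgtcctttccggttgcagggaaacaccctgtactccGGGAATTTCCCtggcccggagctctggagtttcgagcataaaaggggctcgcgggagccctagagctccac
Il6: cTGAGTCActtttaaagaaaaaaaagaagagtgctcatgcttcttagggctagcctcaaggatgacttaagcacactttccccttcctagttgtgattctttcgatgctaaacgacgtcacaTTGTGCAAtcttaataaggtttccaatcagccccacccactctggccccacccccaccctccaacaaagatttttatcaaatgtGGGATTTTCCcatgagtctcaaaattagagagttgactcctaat
Steap4: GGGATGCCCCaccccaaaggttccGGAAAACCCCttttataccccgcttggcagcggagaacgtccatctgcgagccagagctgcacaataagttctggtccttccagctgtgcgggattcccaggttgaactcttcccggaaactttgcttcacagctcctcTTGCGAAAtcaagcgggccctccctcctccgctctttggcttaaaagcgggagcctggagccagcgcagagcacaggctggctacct

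In Lcn2 the capitals are a C/EBP match that begins 216 bases before the start, and in Saa3 a C/EBP match that begins 99 bases before it. Cxcl1 holds a pair of overlapping κB matches 71 and 70 bases before the start. Il6 holds a match of each kind, with AP-1 at 249, C/EBP at 128 and κB at 44 bases. Steap4 holds κB matches at 250 and 226 bases and a C/EBP match at 87 bases. No rule chose the genes shown. Of others looked at, Chil1 holds a κB match at 179 bases and Mmp3 a C/EBP match at 148 and an AP-1 match at 46 bases. Acan, which was not called, holds a κB match at 95 bases. Over the 126 of 186 genes at least 4-fold lower that the promoter table covers, 23.8% held the C/EBP letters, 17.5% the AP-1 letters and 9.52% the κB consensus. Over all 1032 covered genes that were lower the shares were 11.7%, 7.85% and 6.59%, and over the 923 covered genes that were higher they were 6.18%, 6.28% and 7.91%. The background was 8.8%, 5.58% and 5.51% of the 10844 covered genes tested and 10.8%, 7.82% and 4.46% of all 27025 promoters of the table. The κB share of all lower genes was thus under that of the higher genes. These are counts of letters in a short window and say nothing of which factor bound there.

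Acute-phase and antimicrobial proteins, the secreted first-line products of inflamed tissue, were mostly lower. Of 24 listed genes 20 were tested, 14 were lower and none was higher, with a median log2 fold change of -2.38. Lcn2, encoding lipocalin-2, which starves bacteria of iron by binding their siderophores, was at 7203 and 7379 CPM with GFP and at 313 and 217 CPM with Cre, a 27.5-fold difference (log2 fold change -4.78 ± 0.17, adjusted p = 2.09e-09). It was the most abundant mRNA of this group in the control cells and kept 3.64% of its level. Saa3, a serum amyloid A protein, fell from 3568 and 3660 to 218 and 170 CPM, or 18.6-fold. Hp, encoding the haemoglobin-binding protein haptoglobin, fell from 1914 and 1879 to 112 and 124 CPM, or 16.1-fold (adjusted p = 3.26e-10). Steap4, a metalloreductase of the cell membrane, fell from 732 and 728 to 24.9 and 17.0 CPM, or 34.8-fold. In each of these genes both Cre libraries lay far under both controls. Smaller drops were measured for Slpi, an inhibitor of leukocyte proteases (6.30-fold), Lbp, which carries bacterial lipopolysaccharide (5.58-fold), and the protease inhibitor Serpina3n (4.85-fold). Saa2 had 270 and 281 reads with GFP and 6 and 0 reads with Cre. Chil1, a chitinase-like glycoprotein secreted by stressed chondrocytes, was outside the list and close to Lcn2 in level, at 5962 and 6098 CPM with GFP and 340 and 288 CPM with Cre.

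**Figure D1:**
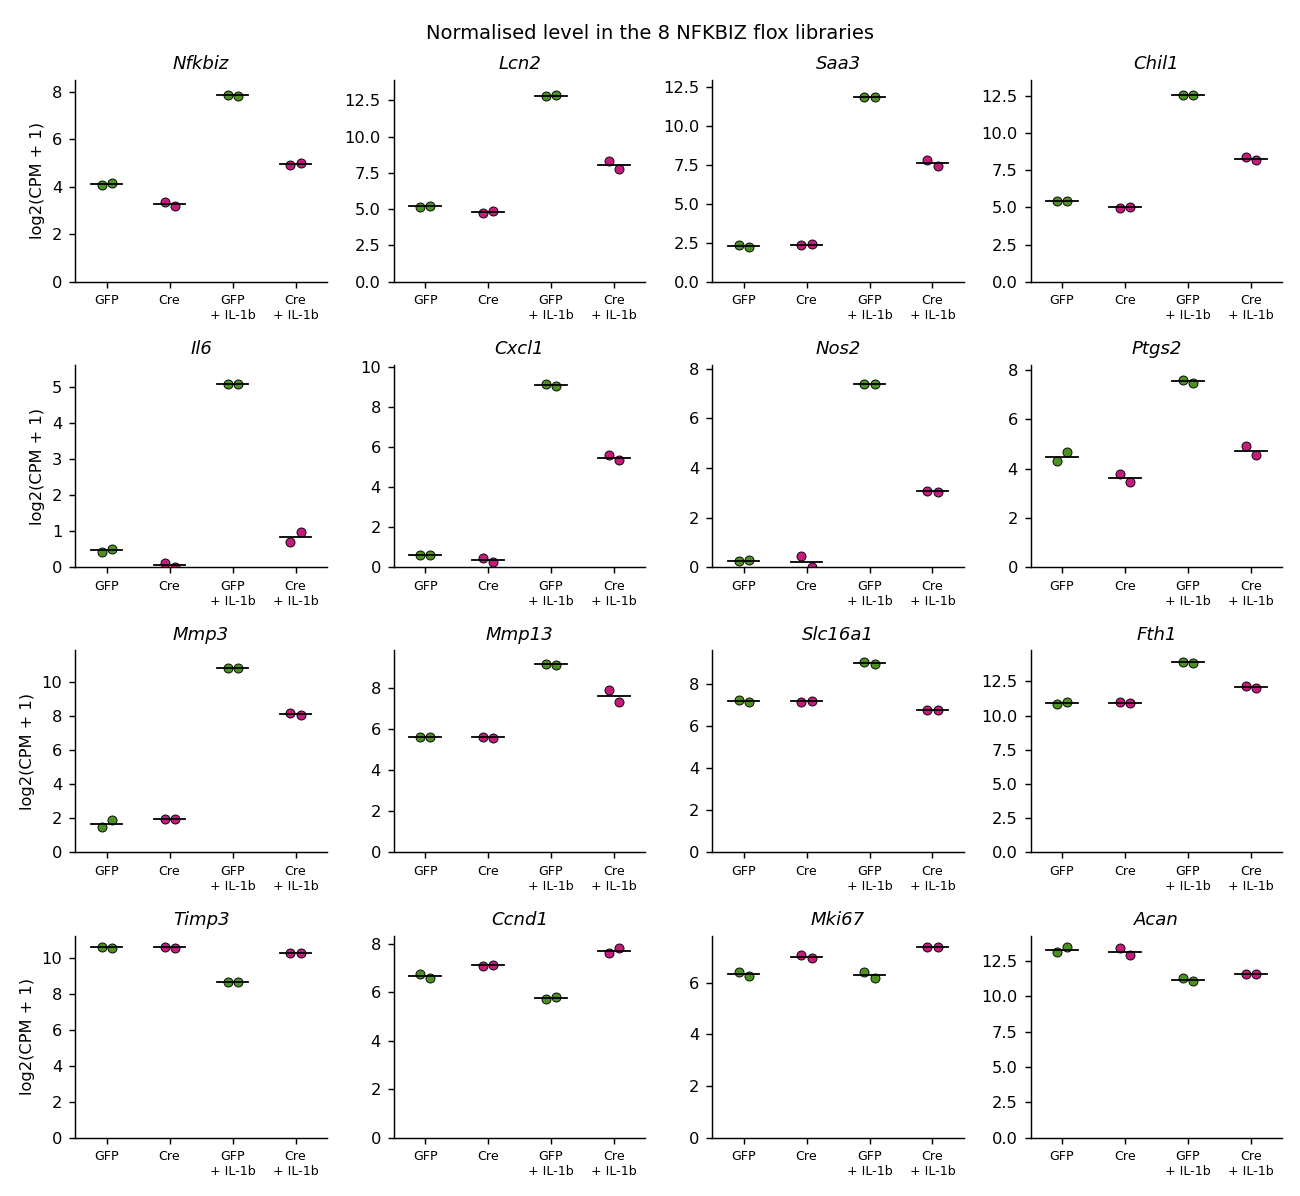
Each panel plots log2(CPM + 1) of 1 gene in the 8 NFKBIZ flox libraries with GFP virus in green and Cre virus in pink, without and with IL-1b, and points are libraries and lines are group means. Lcn2 rose with IL-1b in GFP cells to 7203 and 7379 CPM and stood at 313 and 217 CPM in Cre + IL-1b cells, while Timp3 kept 1243 and 1248 CPM there against 396 and 403 CPM in GFP + IL-1b cells.

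Chemokines that call in neutrophils fell together. The CXC ligands Cxcl1, Cxcl2, Cxcl3 and Cxcl5, which act on the neutrophil receptor CXCR2, were all lower. Cxcl1 was at 570 and 519 CPM with GFP and at 47.2 and 39.6 CPM with Cre (log2 fold change -3.65 ± 0.12, adjusted p = 1.09e-09). Cxcl5 fell from 192 and 194 to 16.8 and 11.2 CPM, Cxcl2 from 48.9 and 46.6 to 6.01 and 3.32 CPM, and Cxcl3 from 29.0 and 21.3 to 0.876 and 1.05 CPM. Not every chemokine took this direction. Cxcl10, an interferon-inducible ligand of the T-cell receptor CXCR3, was higher, at 7.23 and 6.65 CPM with GFP and 19.0 and 13.8 CPM with Cre (log2 fold change 1.24 ± 0.20, adjusted p = 0.00138). Over the CXC and CX3C list, 7 of 12 tested genes were lower and 2 higher. The second higher gene, Cxcl12, was at 44.9 and 44.5 against 54.1 and 62.2 CPM and lost its call in 3 of the 4 fits that left out a compared library (adjusted p up to 0.187). Of 8 CC chemokines 3 were lower and none higher: Ccl7 fell by 1.99 on the log2 scale, Ccl20 by 1.56 and Ccl2, the main monocyte attractant, by 0.82, from 287 and 301 to 211 and 122 CPM. The call of Ccl2 was lost without GFP + IL-1b replicate 2 (adjusted p = 0.0560) and that of Ccl20 without GFP + IL-1b replicate 1 (adjusted p = 0.111).

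Il6, the cytokine that drives the acute-phase response, was the most reduced cytokine with reads in all 4 libraries. It was at 32.7 and 32.9 CPM with GFP and at 0.626 and 0.968 CPM with Cre, which is 15 and 23 reads against 664 and 773 (log2 fold change -5.36 ± 0.25, adjusted p = 1.95e-08). The related cytokine Lif fell from 69.2 and 62.0 to 18.7 and 23.1 CPM, and the receptor chain Osmr, which with gp130 reads oncostatin M, fell by 0.99 on the log2 scale. Of the 12 tested genes of the IL-6 family and its receptors, 5 were lower and 2 higher, and 4 and 3 were lower and none higher without GFP + IL-1b replicates 1 and 2. Csf3, encoding the granulocyte growth factor G-CSF, and Il12b, a subunit of IL-12 and IL-23, were low throughout, at 3.44 and 3.75 and at 2.31 and 2.13 CPM with GFP, and fell by 3.40 and 3.24 on the log2 scale. Tnfsf11, encoding the osteoclast factor RANKL, fell from 5.80 and 5.41 to 0.667 and 1.39 CPM, while its decoy receptor gene Tnfrsf11b, encoding osteoprotegerin, was higher, at 76.9 and 76.1 CPM with GFP and 133 and 125 CPM with Cre (log2 fold change 0.75 ± 0.09, adjusted p = 7.75e-05). Csf1, the macrophage growth factor, was also higher, at 249 and 231 against 476 and 462 CPM. Il1f9, an IL-36 cytokine, had 27 and 38 reads with GFP and none with Cre, which is at least 3.47 lower on the log2 scale with 3 reads per library as the floor. Il1b had 0 and 2 reads with GFP and 2 and 2 with Cre and was not tested.

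Genes known as IκB-ζ targets in other cells, listed from background knowledge with earlier results of these data known, were mostly lower here. Of 13 listed, 12 were tested, 9 were lower and none higher, with a median of -2.40 on the log2 scale. The 9 were Il6, Lcn2, Cxcl5, Csf3, Il12b, Ccl20, Ccl2, Il1f9 and Zc3h12a, the last encoding the ribonuclease regnase-1, which destroys cytokine mRNAs and fell from 112 and 107 to 39.3 and 39.4 CPM.

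Matrix-degrading enzymes moved in both directions. Of 15 tested matrix metalloproteinases 5 were lower and 4 higher, and the median was 0.23. Without GFP + IL-1b replicate 2 the 4 higher genes were 2. Mmp3, stromelysin-1, fell from 1783 and 1755 to 281 and 266 CPM, or 6.47-fold (log2 fold change -2.69 ± 0.12, adjusted p = 1.58e-08). Mmp13, the main collagenase of cartilage, fell less, from 573 and 556 to 236 and 158 CPM, or 2.86-fold (log2 fold change -1.52 ± 0.15, adjusted p = 1.74e-05). Its 2 Cre libraries differed more from each other than those of Mmp3, and both lay under both controls. Mmp10 and Mmp12, like Mmp3 secreted enzymes of a gene cluster on chromosome 9, fell by 1.25 and 2.60 on the log2 scale, and Mmp2, gelatinase A, by 0.70. The membrane-bound Mmp14 was higher, at 190 and 175 against 256 and 344 CPM, although the call was lost without GFP + IL-1b replicate 2 (adjusted p = 0.0575), and Mmp15 rose from 3.93 and 3.58 to 21.2 and 31.6 CPM. The other higher genes were Mmp23, at 3.49 and 3.84 against 8.13 and 7.53 CPM, and the secreted Mmp28, at 12.5 and 11.2 against 17.9 and 20.9 CPM, whose call was lost in 3 of the 4 fits that left out a compared library (adjusted p up to 0.133). Adamts5, the major aggrecanase of mouse cartilage, fell from 87.9 and 81.2 to 32.4 and 33.0 CPM (log2 fold change -1.37 ± 0.14, adjusted p = 1.92e-05), while Adamts4 was at 1.67 and 3.11 against 2.42 and 2.10 CPM (adjusted p = 0.895). Of the inhibitors of these enzymes, Timp3, which blocks aggrecanases and stays bound in the matrix, rose 3.12-fold, from 396 and 403 to 1243 and 1248 CPM (log2 fold change 1.64 ± 0.10, adjusted p = 2.6e-07). Timp2 rose by 0.66 on the log2 scale and Timp1, an IL-1b-raised gene, fell by 1.09.

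**Figure D2:**
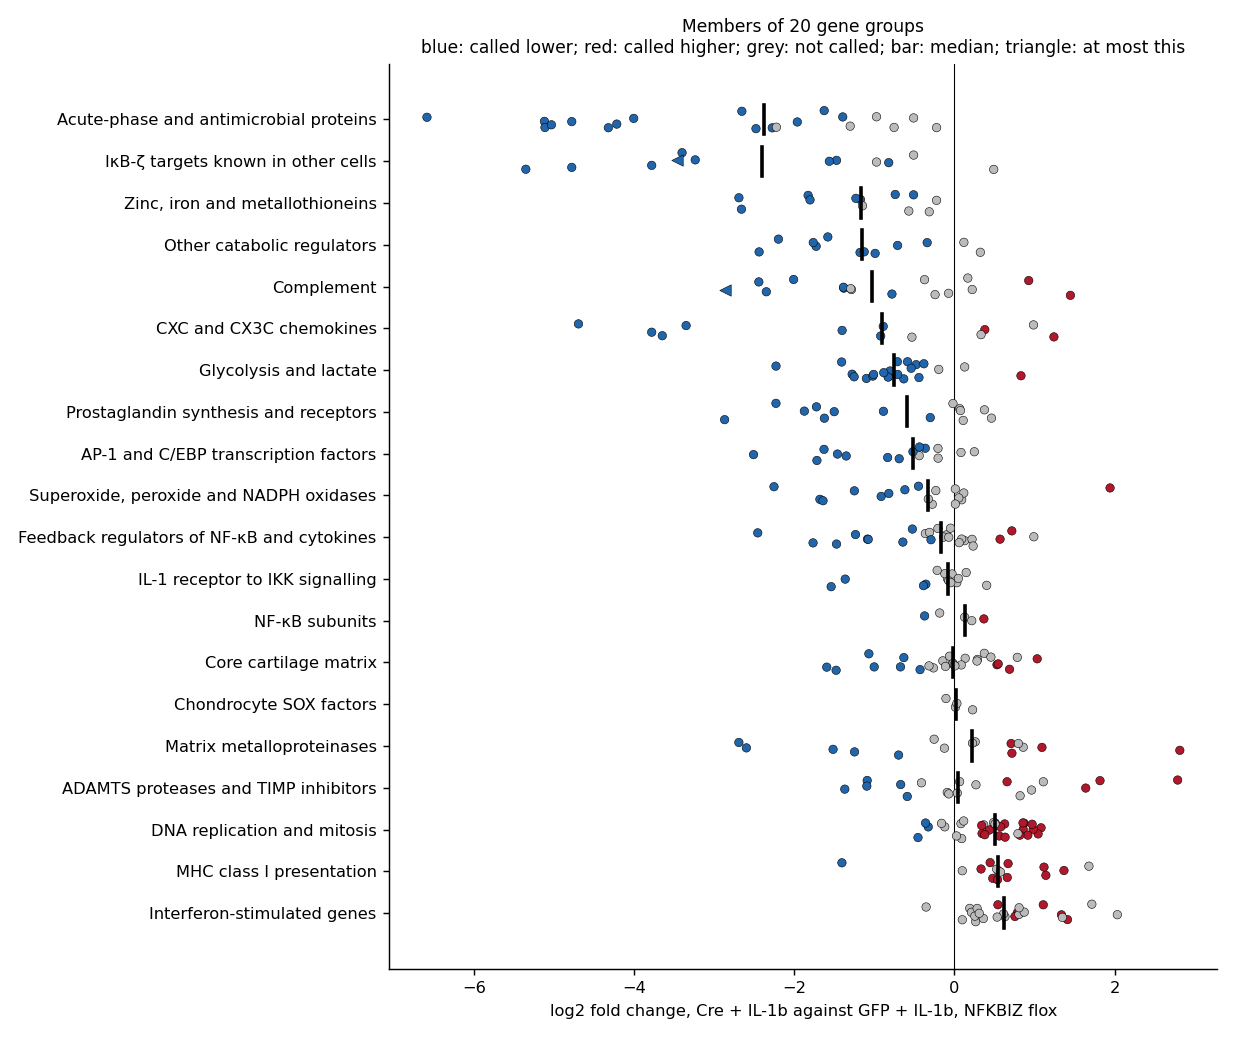
The horizontal axis is the log2 fold change of Cre + IL-1b against GFP + IL-1b in NFKBIZ flox cells, and each point is a tested gene of the group named at the left, blue where called lower, red where called higher and grey where not called. Bars are group medians, which run from -2.40 for IκB-ζ targets known in other cells to 0.62 for interferon-stimulated genes, and triangles mark genes with no reads in Cre + IL-1b cells, placed at their bound.

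Enzymes that make small inflammatory mediators were lower as well. Nos2, the inducible nitric oxide synthase, fell from 168 and 165 to 7.47 and 7.19 CPM, or 22.7-fold (adjusted p = 5.44e-09). Gch1, which makes the cofactor that Nos2 needs, fell by 2.06 on the log2 scale, and Slc7a2, which brings in its substrate arginine, by 0.76. Of 10 tested genes of nitric oxide and arginine handling 4 were lower and 1, Ass1, was higher. In prostaglandin synthesis 8 of 14 tested genes were lower and none higher, and 5 were lower without GFP + IL-1b replicate 1. Ptgs2, encoding cyclooxygenase-2, fell from 194 and 180 to 28.9 and 22.2 CPM, or 7.32-fold, and Ptges, the synthase downstream of it, from 37.0 and 34.0 to 9.88 and 9.47 CPM. The phospholipase gene Pla2g4a, which frees arachidonic acid, fell by 0.89 on the log2 scale, and the prostaglandin E2 receptor gene Ptger4 by 1.72. Of 16 tested complement genes 7 were lower and 2 higher. C3, the component on which all complement pathways meet, fell from 924 and 872 to 178 and 175 CPM, and C1s1 and C1ra, proteases of the classical pathway, fell by 1.39 and 1.38 on the log2 scale. The 2 higher genes were Cd55, which limits complement on cell surfaces, and Masp1, and both calls were lost without GFP + IL-1b replicate 2 (adjusted p = 0.0697 and 0.113).

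Metal-ion and redox genes followed the inflammatory ones. Of 12 tested genes for zinc, iron and metallothioneins 8 were lower and none higher, with a median of -1.16. Slc39a8, the zinc importer ZIP8, fell from 178 and 192 to 25.7 and 31.5 CPM (log2 fold change -2.69 ± 0.14), and the related importer Slc39a14 from 412 and 398 to 113 and 115 CPM. Mt2, a metallothionein, fell from 4251 and 3975 to 857 and 443 CPM. Fth1, the ferritin heavy chain that stores iron, was among the most abundant mRNAs and fell from 15310 and 14838 to 4508 and 4122 CPM (log2 fold change -1.80 ± 0.12, adjusted p = 4.71e-07). Sod2, the mitochondrial superoxide dismutase, fell from 589 and 597 to 139 and 110 CPM, and the extracellular Sod3 by 1.64 on the log2 scale. Of 17 tested genes for superoxide, peroxide and NADPH oxidases 8 were lower and 1 higher. The 8 encode enzymes that remove superoxide or peroxide or keep thiols reduced, and of the oxidase genes only Duox1 was called, higher, at 4.42 and 4.21 CPM against 1.77 and 0.511 CPM, with the call lost without GFP + IL-1b replicate 2 (adjusted p = 0.0769).

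Among transcription factors, C/EBP and AP-1 genes were lower in 10 of 15 tested cases and higher in none, and in 6 without GFP + IL-1b replicate 1. Cebpd, which drives acute-phase genes, fell from 389 and 375 to 62.5 and 71.7 CPM (log2 fold change -2.51 ± 0.11, adjusted p = 1.03e-08), and Cebpb from 434 and 397 to 163 and 162 CPM. Of other regulators tied to cartilage breakdown 10 of 12 were lower and none higher, with a median of -1.15. Epas1, encoding HIF-2α, fell from 73.0 and 70.6 to 20.8 and 22.5 CPM, Runx1 by 1.18 on the log2 scale, and the nuclear receptor genes Nr4a1 and Nr4a2 by 1.58 and 1.76. The NF-κB subunit genes themselves differed little. Nfkb1 fell by 0.37 and Nfkb2 rose by 0.37 on the log2 scale, and these calls were lost in 2 and 3 of the 4 fits that left out a compared library (adjusted p up to 0.122 and 0.164), and Rela, Relb and Rel were not called. Of the other IκB genes Bcl3, which like Nfkbiz encodes a nuclear IκB, fell from 130 and 125 to 57.7 and 60.7 CPM, and Nfkbie rose from 4.23 and 4.64 to 8.76 and 10.9 CPM.

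The receptor end of the IL-1 pathway was lower while most of its inner chain was not called. Il1r1, the signalling receptor, fell from 47.3 and 43.0 to 15.8 and 15.2 CPM (log2 fold change -1.54 ± 0.12, adjusted p = 3.13e-06), which is the range of cells without IL-1b, 13.7 to 15.8 CPM with GFP. Its partner chain Il1rap fell from 17.5 and 16.4 to 6.42 and 6.73 CPM. Of the 14 genes tested between the receptor and the IKK complex 4 were lower and none higher, and Myd88, Irak1, Irak4, Traf6, Map3k7, Chuk and Ikbkb were among the 10 that were not called. When either GFP + IL-1b library was left out 2 were lower, and without Cre + IL-1b replicate 1 there were 2 higher. Feedback genes were also reduced in part, with 9 of 24 lower and 2 higher, and 1 to 4 higher when a compared library was left out. Irak3, which blunts receptor signalling, fell from 43.7 and 49.2 to 9.80 and 7.11 CPM, and Socs3, which blunts cytokine receptors, by 1.09 on the log2 scale, whereas Tnfaip3, encoding A20, was not called, with a log2 fold change of -0.21.

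Glycolysis was lower nearly throughout. Of 22 tested genes 19 were lower, 1 was higher and 2 were not called, with a median of -0.76, and 15 to 19 were lower when a compared library was left out. The lactate and monocarboxylate carriers Slc16a1 and Slc16a3 fell from 517 and 484 to 106 and 107 CPM and from 414 and 411 to 173 and 173 CPM. Pfkfb3, whose product makes the activator of phosphofructokinase, fell from 196 and 199 to 78.2 and 84.6 CPM (log2 fold change -1.28 ± 0.09, adjusted p = 1.06e-06). The glucose carrier Slc2a1 fell from 691 and 684 to 342 and 336 CPM. Ldha, the lactate dehydrogenase subunit that favours lactate production, fell 1.77-fold, from 1954 and 1942 to 1101 and 1099 CPM, and Ldhb, the other subunit, rose 1.78-fold, from 37.3 and 42.0 to 68.7 and 72.4 CPM. Ldhb was the gene of the list that was higher. Hif1a, a regulator of these genes, fell by 0.71 on the log2 scale. Of 10 tested NAD salvage genes 2 were lower, Nampt, the rate-limiting enzyme, by 0.99 and Nmnat3 by 2.78.

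Cartilage matrix genes showed no common shift. Of 27 tested genes 7 were lower and 4 higher, with a median of -0.02, and 4 were lower when either GFP + IL-1b library was left out, with 2 higher without GFP + IL-1b replicate 2. Acan, the aggrecan core protein, was at 2484 and 2138 CPM with GFP and at 2954 and 3032 CPM with Cre. The 2 groups did not overlap, but the difference of 0.37 ± 0.16 on the log2 scale did not pass (adjusted p = 0.149). Col2a1, the main collagen of cartilage, was at 22554 and 20784 against 25325 and 27550 CPM (adjusted p = 0.202), and none of the 4 chondrocyte SOX factor genes was called, Sox9 included (log2 fold change 0.23, adjusted p = 0.232). Without IL-1b, GFP cells had 8889 and 11281 CPM of Acan, so both groups under IL-1b stayed far below that level. The matrix genes that were lower were mostly small proteoglycans and surface proteins. Dcn, encoding decorin, fell from 280 and 272 to 112 and 70.6 CPM, Prg4, encoding lubricin, from 236 and 218 to 87.4 and 75.6 CPM, and Lum by 1.00 on the log2 scale. Matn3, encoding matrilin-3, rose from 64.5 and 57.3 to 129 and 120 CPM (log2 fold change 1.03 ± 0.10, adjusted p = 1.44e-05), and Ucma, a secreted cartilage protein, by 0.69. Of 14 hypertrophy genes 4 were lower and 1 higher, and 2 and none without GFP + IL-1b replicate 1. Spp1, encoding osteopontin, fell from 1809 and 1616 to 480 and 435 CPM.

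Genes higher in Cre + IL-1b cells included cell-cycle and antigen-presentation genes. Ccnd1, encoding cyclin D1, had the smallest p-value among higher genes, at 52.1 and 55.0 CPM with GFP and 195 and 228 CPM with Cre (log2 fold change 1.98 ± 0.11, adjusted p = 1.18e-07). Of 32 genes for DNA replication and mitosis 19 were higher and 3 lower, with a median of 0.50. Mki67, a proliferation marker, rose from 84.9 and 71.5 to 165 and 165 CPM, Cdc20, which starts anaphase, from 25.0 and 24.8 to 47.8 and 55.1 CPM, and Top2a, which untangles chromosomes, by 0.87 on the log2 scale. The 19 became 9 without GFP + IL-1b replicate 1 and 12 without GFP + IL-1b replicate 2, and the 3 lower genes became 0 and 1. Mki67 and Top2a were also higher with Cre when no IL-1b was given (log2 fold change 0.67 and 0.66, adjusted p = 0.0187 and 0.00558). Of 25 p53 target genes 10 were higher and 1 lower. The 10 included Mdm2, whose product limits p53, at 158 and 159 against 261 and 228 CPM, whereas Cdkn1a, encoding the cell-cycle inhibitor p21, was not called at a log2 fold change of 0.02. This count was 6 and 4 without GFP + IL-1b replicates 1 and 2.

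Of 15 tested genes of MHC class I presentation 10 were higher and 1 lower, with a median of 0.55, and 4 and 5 were higher without GFP + IL-1b replicates 1 and 2. Tap1, a subunit of the peptide carrier into the endoplasmic reticulum, rose from 17.5 and 21.2 to 37.7 and 46.5 CPM, Nlrc5, the transactivator of class I genes, from 9.25 and 10.1 to 19.1 and 23.8 CPM, and H2-Q4 from 16.0 and 15.9 to 33.1 and 49.2 CPM. H2-T23 went the other way, from 11.0 and 12.4 to 5.26 and 3.58 CPM. Reads of these class I genes are split among close paralogues, so single values are uncertain. Of 24 tested interferon-stimulated genes 6 were higher and none lower, with a median of 0.62, and this count was 1 to 4 when a compared library was left out. Irf1, a transcription factor of the interferon response, rose from 20.2 and 22.6 to 38.7 and 35.2 CPM. Outside the lists, Npr3, the clearance receptor for natriuretic peptides, rose from 28.7 and 31.9 to 108 and 101 CPM, and Sncg, a synuclein, from 55.0 and 56.0 to 151 and 157 CPM.

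How far these differences follow the genes' response to IL-1b was read from libraries outside the comparison. In the 8 GFP-virus libraries of LDHA flox and NAMPT flox cells, 937 of 14568 genes (6.43%) were raised at least 2-fold by IL-1b and 522 (3.58%) were lowered at least 2-fold. Of the raised genes 858 were also tested in NFKBIZ flox cells, and 443 of them, or 51.6%, were lower after Nfkbiz deletion, with 42 higher. The share grew with the size of the response: 41.8% of 607 genes raised 2 to 4-fold, 71.2% of 177 raised 4 to 8-fold, 73.1% of 26 raised 8 to 16-fold and 91.7% of 48 raised over 16-fold. All 20 genes raised over 64-fold were lower, with a median log2 fold change of -4.11. Of genes raised over 16-fold, Gbp2, Tnip3, Lce1g and Kcnk10 were not called, at adjusted p-values of 0.335, 0.246, 0.806 and 0.230, and were at most 7.76 CPM in any of the 4 libraries. The names of these 4 were taken after their values were seen. The raised genes also hold virus-linked genes described below, such as Tmem130 with a log2 fold change of -11.38.

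Genes lowered by IL-1b moved the other way. Of 514 tested, 182, or 35.4%, were higher after Nfkbiz deletion and 4 were lower, against 7.4% higher and 7.22% lower among the 12954 genes with neither response. The share was 31.7% of 426 genes lowered 2 to 4-fold, 49.3% of 73 lowered 4 to 8-fold and 73.3% of 15 lowered over 8-fold. Seen from the other side, raised genes made up 32.1% of the 1382 lower genes tested in both sets, and lowered genes 15.4% of the 1182 higher genes. Left-out libraries moved the share of raised genes called lower to between 40.8% and 48.6% and the share of lowered genes called higher to between 21% and 34.8%, and the NFKBIZ flox libraries entered only the deletion side of these counts.

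**Figure D3:**
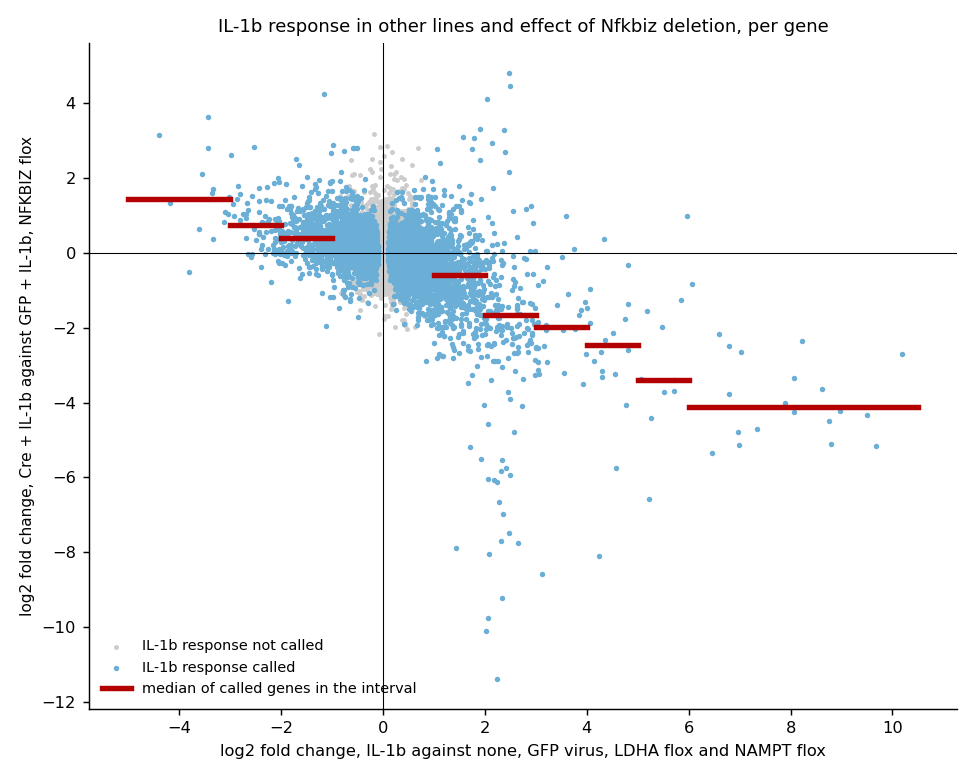
Each point is 1 gene, with its log2 response to IL-1b in GFP-virus LDHA flox and NAMPT flox cells on the horizontal axis and its log2 fold change after Nfkbiz deletion under IL-1b on the vertical axis. Red lines are medians of genes whose response was called (blue), by size of response, and they fall from 1.44 for genes lowered over 8-fold to -4.11 for genes raised over 64-fold.

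Without IL-1b, few genes were called for Cre virus in NFKBIZ flox cells, which with 2 libraries per group does not show that the rest were unaffected. Lower genes numbered 23 (0.15%) and higher genes 17 (0.111%) in edgeR's quasi-likelihood test. In the same test 910 of 15356 genes had an unadjusted p of 0.05 or less, which is more than the share of 0.05 that unchanged genes would reach by chance. Of the 40 called genes 38 were also called under IL-1b with the same sign. A test of the difference between the 2 effects, the interaction of Cre with IL-1b, called 538 genes (3.5%) more negative and 259 (1.69%) more positive under IL-1b. For genes that it did not call, including ones called under IL-1b alone, a difference between the 2 effects is not shown. Lcn2 had an interaction of -4.36 ± 0.22 on the log2 scale (adjusted p = 4.63e-07), Chil1 of -3.83 ± 0.16 (adjusted p = 1.24e-07), Slc16a1 of -2.21 ± 0.13 (adjusted p = 1.31e-06) and Timp3 of 1.64 ± 0.14 (adjusted p = 2.44e-05). For these genes the effect was thus larger under the cytokine. In the glycolysis list 17 of 22 genes had a negative interaction that passed, in the acute-phase list 9 of 20 and in the MHC class I list 1 of 15. Il6 was at only 0.344 and 0.411 CPM with GFP and at 0.0882 and 0 CPM with Cre when no IL-1b was given, and its interaction of -2.40 ± 1.35 did not pass (adjusted p = 0.399). The interaction of Mki67, 0.41 ± 0.15, did not pass either (adjusted p = 0.172).

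Cre virus also changed IL-1b-treated LDHA flox and NAMPT flox cells, in which it deletes another gene, so the NFKBIZ flox effect was tested against the mean effect of the other 2 lines in 1 fit of 12 libraries. Within that fit Cre called 5850 of 16472 genes (35.5%) in LDHA flox cells and 7727 (46.9%) in NAMPT flox cells. The NFKBIZ flox effect was lower than the others' mean for 2848 genes (17.3%) and higher for 2816 (17.1%). All values in this and the following paragraph are log2 fold changes or differences of them from this fit, and their p-values are again from edgeR's quasi-likelihood test, adjusted by Benjamini-Hochberg over all genes of the fit. The comparisons have the NFKBIZ flox libraries in common with those above. Nfkbiz fell by 1.30 in LDHA flox and by 1.66 in NAMPT flox cells, so that the other lines lost part of it too, and the NFKBIZ flox effect differed from theirs by -1.42 ± 0.09 (adjusted p = 2e-08).

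Lcn2 fell by 1.09 and 0.94 in the other lines, and the NFKBIZ flox effect differed from their mean by -3.74 ± 0.14 (adjusted p = 8.1e-11). Chil1, Saa3, Steap4, Hp and Nos2 had differences of -3.28, -2.99, -3.41, -2.62 and -2.99. Chil1 and Nos2 are outside the acute-phase list, of whose 20 tested genes 10 were lower than in the other lines and 2 higher. Of 12 other catabolic regulators 10 were lower and none higher. For Ptges and Ccl2 the directions were opposite: Ptges rose by 1.68 and 2.16 in LDHA flox and NAMPT flox cells and Ccl2 by 0.59 and 0.75, while both fell in NFKBIZ flox cells. Of 15 matrix metalloproteinases 5 were lower than in the other lines and 7 higher, and of 18 ADAMTS proteases and TIMP inhibitors 4 were lower and 8 higher. Mmp3 fell by 2.37 and 2.50 in the other lines and differed by only -0.24 ± 0.08 (adjusted p = 0.0364). Mmp13 fell by 2.21 and 2.47 there, more than in NFKBIZ flox cells, with a difference of 0.85 ± 0.15 (adjusted p = 0.000454), and Adamts5 fell by 2.21 and 2.66, with a difference of 1.09 ± 0.11. Mmp2 rose by 0.36 and 0.65 there and fell here, a difference of -1.17. Il6 fell by 2.02 and 2.87, against which the NFKBIZ flox effect was more negative, at -2.89 ± 0.22. In the glycolysis list 16 of 22 genes were lower than in the other lines. Among cartilage matrix genes 20 of 27 were higher than in the other lines and 1 was lower: Acan fell by 0.85 and 0.83 there, and Matn3, which rose here, by 1.73 and 1.76. Ccnd1 rose by 2.45 and 2.49 in the other lines, more than in NFKBIZ flox cells, whereas Mki67 was at -0.11 and -0.28 and its difference was 1.30 ± 0.10. All NFKBIZ flox libraries carry 1 style of label title and the other lines hold a library of each style per group, which the fit took as a covariate. With libraries of the NFKBIZ flox style alone the count of genes that differed was 3005 in place of 5664.

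**Figure D4:**
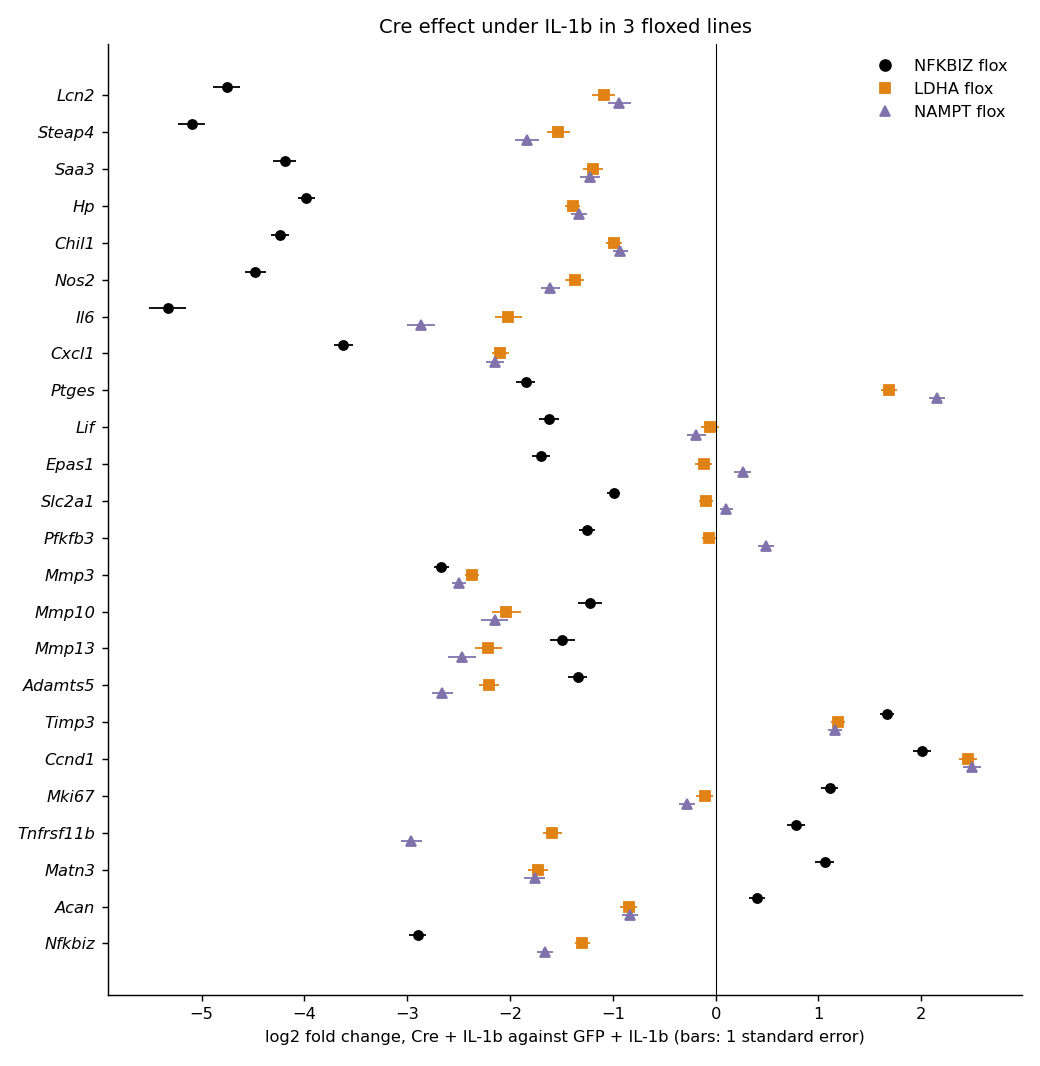
Points are log2 fold changes of Cre + IL-1b against GFP + IL-1b in the 3 floxed lines from the 12-library fit, and bars are 1 standard error. The black points of NFKBIZ flox lie far left of the others for the genes from Lcn2 to Il6 and right of them for Mmp13 and Adamts5, and Ptges, Tnfrsf11b and Matn3 lie on opposite sides of 0.

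Some of the largest differences between Cre + IL-1b and GFP + IL-1b cells belong to genes that moved with the virus in cells of every line. A set was taken after the values were seen, from untreated libraries other than NFKBIZ flox: genes at 1 CPM or more in all 4 GFP-virus libraries of LDHA flox and NAMPT flox cells, at least 4-fold above both wild-type libraries without virus, and above all 4 Cre-virus libraries. It held 13 genes, of which 12 were tested here and 11 were lower in Cre + IL-1b cells. Tmem130 (chr5:144735915-144761649), a membrane protein gene, was at 0.112 and 0.171 CPM (here of the library total) in wild-type cells, at 1375 and 1309 in NFKBIZ flox GFP + IL-1b cells and at 0.711 and 0.355 with Cre. In LDHA flox cells with Cre + IL-1b it was at 137 and 142. Htra2, a mitochondrial protease gene at 39.7 and 18.6 in wild-type cells, was at 3595 and 3450 and at 27.8 and 31.3 in the 2 NFKBIZ flox groups. Zan, Lipg, Nat8f5, Bcas1, Insm2, Irx1, Pcdh10 and the heat-shock genes Hspa1a and Hspa1b were the other lower genes and Pcdh17 was not called.

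The same rule with the viruses exchanged gave 82 genes, of which 71 were tested and 46 were higher in Cre + IL-1b cells, with 3 lower. Palm3 was at 0.786 and 0.923 CPM of the total in wild-type cells, at 0.776 and 0.598 in NFKBIZ flox GFP + IL-1b cells and at 12.4 and 15.4 with Cre. For these genes, as for every other gene, the virus and the loss of Nfkbiz cannot be told apart from the NFKBIZ flox libraries. Genes outside these sets also differed with Cre virus in the other lines, as given above. Of the genes in the lists, Adamts8, a protease gene, and Pmaip1, a p53 target, were in the second set, and no gene of the acute-phase or chemokine lists was in either set. Both sets were taken without IL-1b, where genes that the cytokine turns on are low. Lcn2, for one, was at 24.1 and 26.8 CPM of the total in LDHA flox GFP cells and at 39.8 and 11.6 in untreated wild-type cells. A virus effect on such genes under IL-1b was therefore not tested by these sets.

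**Figure D5:**
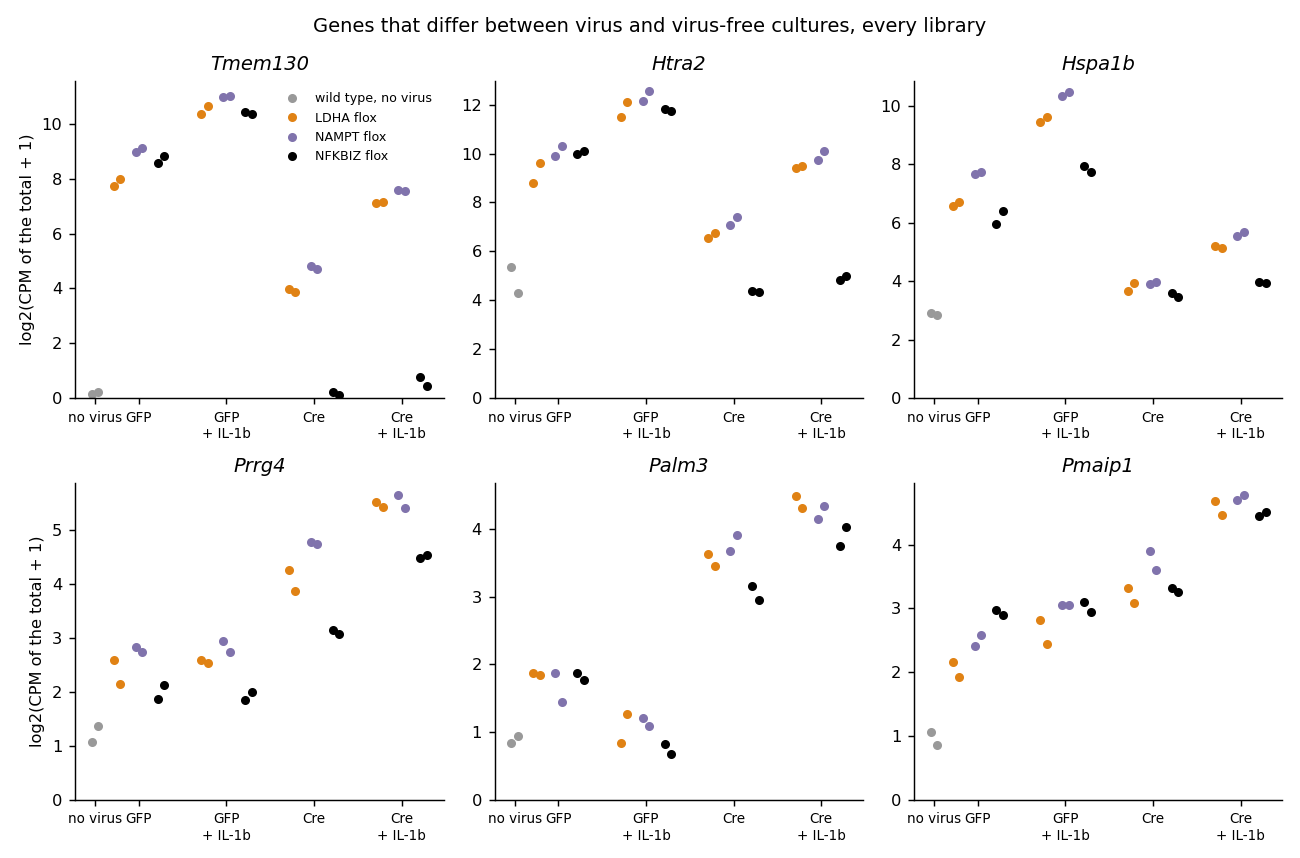
Each point is log2(CPM of the total + 1) of 1 library, by virus and cytokine along the horizontal axis and by line in colour. Tmem130, Htra2 and Hspa1b are high with GFP virus in all 3 lines, and Prrg4, Palm3 and Pmaip1 are highest with Cre virus and IL-1b.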

How the data were processed

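Total RNA of the cells was depleted of ribosomal RNA and sequenced. Per the labels, the authors aligned reads with STAR (2.0.4b) to Ensembl release 76 (GRCm38) and counted unique, unambiguous reads per gene with featureCounts (1.45), and the deposited values used here are whole-number counts. The deposited files also hold the authors' CPM (each count per total) and RPKM (that CPM per kilobase of gene length), which entered no test. Whether counting used strand is not given in the sources used here, so reads of overlapping genes cannot be separated, and the study's methods name other tool versions than the labels.

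Gene names came from GENCODE M21 for 40340 of 41388 genes, and 355 ribosomal RNA genes were left out. Genes with at least 1 CPM in at least 1 library of a fit were tested (3 libraries for the IL-1b response of other lines). The main test was edgeR's quasi-likelihood test (edgeR 4.0.16, R 4.3.3) with TMM scaling on all 8 NFKBIZ flox libraries, which share 1 estimate of the spread with 4 residual degrees of freedom, and Benjamini-Hochberg adjustment over all genes tested. DESeq2 (1.42.0) and limma's voomWithQualityWeights (3.58.1), the test of the study's methods, were alternatives. Comparisons across lines used 12 libraries with line, virus and title style. The depth of 20625238 to 25632928 reads per NFKBIZ flox library sets the precision of each level, with 3 reads as the floor for a gene with no reads. Replicates differed by more than sampling noise in every group (chi-square per gene 7.61 to 46.4), so none was counted as a duplicate. On simulated counts with 200 of 15356 genes changed 2-fold, the main test recovered 178 with 17 false calls. The changed genes were drawn only from genes above a minimum mean count, so this recovery does not cover genes with few reads.

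Named genes were those the study names for this deletion, the 10 with the smallest p and the 10 with the largest change per direction (at least 5 CPM), up to 5 called members per list and direction, and the largest differences from other lines. Others were named after their values were seen, and so were the virus-linked sets. The comparison and the 38 gene lists were chosen with earlier results of these data known. Wild-type libraries other than the untreated pair were not used. Promoters came from RefSeq (GRCm38.p6) for 10844 of the 15356 genes tested. Some genes that the rule names are not reported here.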

Additional observations from a re-analysis of the deposited data

Results flagged for a closer look

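The effect of Cre virus under IL-1b differed between NFKBIZ flox cells and the mean of LDHA flox and NAMPT flox cells for 5664 genes, and in NFKBIZ flox cells the effect differed with and without IL-1b for 797 genes, each by a test of the difference itself (edgeR's quasi-likelihood test, Benjamini-Hochberg adjusted).

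Among the genes named by rule, those given here had effects that were called in opposite directions in NFKBIZ flox cells and in both other lines, with a difference that passed the test. The values are NFKBIZ flox minus the mean of the other lines on the log2 scale. In signalling and chemokine genes it was -1.61 for Irak2, -1.35 for Cxcl14, 2.09 for Cxcl10, 1.63 for Cxcl12, -1.47 for Ccl2 and 1.36 for Lifr. In the TNF family it was -2.45 for Tnfsf9, encoding the ligand 4-1BBL, and 3.06 for Tnfrsf11b. Ptges stood at -3.77 and Mmp2 at -1.17. Cartilage and mineralisation genes were on both sides, with 2.80 for Matn3, 2.79 for Ucma, 1.06 for Chad and -2.51 for Phospho1, a phosphatase of mineralising cartilage. The cell-cycle genes Ccna2 and Hmmr had 1.36 and 1.00, the class I gene H2-T23 had -2.32 and the glycolysis gene Pfkp had -1.44. Further differences were those of Wfdc2 (-6.71), Catsperg2 (5.14), Bmp3 (5.10), Cavin2 (3.83) and Npr3 (3.75). Bmp3, encoding a bone morphogenetic protein, was at 12.0 and 14.8 CPM in GFP + IL-1b cells and at 33.5 and 24.4 CPM in Cre + IL-1b cells of NFKBIZ flox, and its effect in the other lines was -3.39 and -4.54. Several of the calls in NFKBIZ flox cells rest on single libraries. When each of the 4 compared libraries was left out in turn, the call was lost in 4 of the fits for Irak2, in 3 for Cxcl12, Lifr, Wfdc2 and Catsperg2, in 2 for Chad and Phospho1 and in 1 for Ccl2 and Hmmr. No cause was tested for any of these.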

How the results depend on the processing

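No called log2 fold change of a gene named by rule changed sign under the alternatives run for them. Some of these genes lost their call, most often when either GFP + IL-1b library was left out. Of the 37 list medians 6, which were within 0.1 of 0 on the log2 scale with all libraries, changed sign when a compared library was left out: IκB proteins (-0.08, up to 0.03), cartilage matrix (-0.02, up to 0.0002), SOX factors (0.02, down to -0.06), hyaluronan (-0.08, up to 0.04), NAD salvage (-0.03, up to 0.08) and leukocyte markers (-0.04, up to 0.05). Genes lower numbered 1333 by DESeq2 and 1277 by limma against 1413, and genes higher 1238 and 1142 against 1253, with 1957 higher in the 12-library fit. Leaving out 1 library moved the lower count to 729 to 2132, the higher count to 561 to 1601 and the interaction count of 797 to 344 to 1892, and without a filter the interaction count was 1325. Without a GFP + IL-1b library the interaction count was 344 and 396, without a GFP library 467 and 430, and without Cre + IL-1b replicate 1 it was 1892. The count of genes that differed from the other lines, 5664, was 3005 with 1 title style and 4235 to 6526 without 1 library. The share of IL-1b-raised genes that were lower, 51.6%, was 75.3% for genes raised at least 4-fold, 46.5% with NAMPT flox alone and 40.8% to 48.6% without 1 library. The share of lowered genes that were higher, 35.4%, was 53.4% at 4-fold and 21% to 34.8% without 1 library. The cause of these moves was not tested. A fit without 1 library assumes that the lone library of its group varies like the others. No paired analysis was possible because the labels number the libraries without naming replicates or pairs, and the replicate numbers used here are names given in accession order. With 2 libraries per group, small differences are limited by the number of libraries more than by depth, and a gene that was not called is not shown to be unaffected.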

Other observations

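Several metabolic and transport genes outside the lists were also much lower in Cre + IL-1b cells, named after their values were seen. Vnn3, a pantetheinase gene next of kin to Vnn1, was at 153 and 157 CPM with GFP and at 4.46 and 4.12 CPM with Cre. Slc7a11, the cystine importer that feeds glutathione synthesis, was at 126 and 120 against 16.9 and 16.3 CPM (log2 fold change -2.89). Dio2, which activates thyroid hormone, was at 116 and 102 against 11.8 and 11.2 CPM (log2 fold change -3.25). Car9, a carbonic anhydrase of the cell surface, was at 67.0 and 64.8 against 10.1 and 10.9 CPM, and Dgat2, which makes triglycerides, was at 158 and 147 against 24.1 and 26.3 CPM. In each gene both Cre libraries lay far under both controls.

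Of the genes that were higher, 2 more were named after their values were seen. Acta2, smooth muscle actin, was at 33.1 and 42.4 against 113 and 106 CPM (log2 fold change 1.53), and Thbs1, thrombospondin-1, at 1209 and 1291 against 2963 and 2995 CPM (log2 fold change 1.25).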
